A study of Homo sapiens with 12 samples.

Results

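The 41 genes described here encode enzymes that build mucin-type and related glycans, together with the hexosamine pathway that supplies their sugar donors. They were taken from a named list, which was chosen with earlier results of these data known. They make up 41 of 19974 protein-coding genes examined. By step, 6 belong to the hexosamine pathway, 10 start O-glycans, 6 build or assist O-glycan cores, 6 extend chains, 3 branch N-glycans, 5 add fucose and 5 add sialic acid. H3K27ac, an acetylation of histone H3 found at active promoters and enhancers, was mapped by chromatin immunoprecipitation and sequencing in 12 libraries of human pancreatic ductal adenocarcinoma cell lines, 2 in each of 6 groups. The groups were MiaPaCa2 given interferon beta (IFN), MiaPaCa2 left untreated (UT), CFPAC1 given IFN, CFPAC1 left untreated, CFPAC1 IRF1KO clones and CFPAC1 WT clones. Both CFPAC1 and MiaPaCa2 are established lines, and IFN was applied at 1000 U/ml for 2 h to bulk cells. All clones were isolated by dilution after infection with lentiCRIPSv2. Per the labels, the vector of the IRF1KO clones also expressed Cas9 and a guide RNA against IRF1, which activates many interferon-stimulated genes, and no interferon treatment is given for any clone. Each clonal group is therefore 2 clones, and clone-to-clone differences are part of its spread.

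Mucin-type O-glycosylation begins in the Golgi, where a GALNT enzyme attaches N-acetylgalactosamine to serine or threonine. The first sugar is built into a core structure by C1GALT1, B3GNT6 or the GCNT enzymes, extended with galactose and N-acetylglucosamine, and capped with fucose or sialic acid. The hexosamine pathway turns fructose 6-phosphate into UDP-N-acetylglucosamine, the donor for these chains and for the single-sugar modification that OGT places on nuclear and cytoplasmic proteins. In pancreatic ductal cancer, truncated O-glycans and sialylated Lewis structures on mucins are well known as tumour antigens.

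For each gene, the length of DNA lying under peaks was measured in a window reaching 5 kb to either side of 1 gene end, the end with more coverage on average over all 12 libraries. This covered length, in bp, says how far the mark extends and not how high it is, and 0 bp means that no peak passed the authors' threshold there. Differences are in log2 of covered length plus 500 bp between group means, with the standard error (SE), and a gene was called at a limma adjusted p under 0.05 (Benjamini-Hochberg over 15513 genes). Where a group had 0 bp, only lengths and adjusted p are given for the member, since a fitted ratio would depend on the 500 bp added. The adjusted p comes from the same fit and depends on the 500 bp as well. Libraries at 0 bp also add little spread to it. Some such calls were lost with another offset, B3GNT6 in CFPAC1 after IFN at 100 bp and C1GALT1 between treated lines at 2000 bp. Of the 41 genes, 38 passed the filter of coverage in at least 2 libraries, and B4GALT1, GALNT2 and FUT3 had 0 bp in the end window of every library. The labels do not say whether bulk libraries came from separate cultures, so p-values there do not reach beyond the spread between these libraries. That spread is pooled over all 6 groups in 1 model. Bulk comparisons therefore include the spread between clones, and clone comparisons include that between bulk libraries. The deposited lists held 59896 to 109861 peaks covering 63.61 to 94.81 Mb per library, and read depth is unknown. In bulk chromatin, fewer cells carrying the mark and less mark per cell cannot be told apart.

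Between 25 and 27 of the 41 genes were covered in a MiaPaCa2 library, against 34 to 37 in a CFPAC1 library. The windows together held 44.33 to 56.1 kb under peaks in MiaPaCa2 and 110.36 to 134.36 kb in CFPAC1. The lines did not overlap in either value. Whole peak lists tended to be shorter in MiaPaCa2 as well, covering 63.61 to 78.23 Mb, against 75.63 to 94.81 Mb in CFPAC1, and these ranges overlapped. The plot of covered length by library shows that the gap at the 41 genes was uneven. The hexosamine genes together held 14.65 to 19.57 kb in MiaPaCa2 and 11.87 to 15.67 kb in CFPAC1, whereas the initiating enzymes held 6.46 to 10.36 kb in MiaPaCa2 and 26.92 to 39.5 kb in CFPAC1. Extension genes held 6.91 to 11.01 kb in MiaPaCa2 and 25.18 to 31.06 kb in CFPAC1, and core genes 5.18 to 5.9 kb in MiaPaCa2 and 10.28 to 14.96 kb in CFPAC1. Among the capping steps, fucosylation genes held 2.79 to 4.32 kb in MiaPaCa2 and 11.66 to 16.54 kb in CFPAC1, and sialylation genes 6.05 to 7.54 kb in MiaPaCa2 and 13.92 to 17.53 kb in CFPAC1. The N-glycan branching genes held 1.64 to 2.25 kb in MiaPaCa2 and 1.92 to 4.81 kb in CFPAC1, and of the 7 groups of genes these and the hexosamine genes had overlapping ranges.

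**Figure D1:**
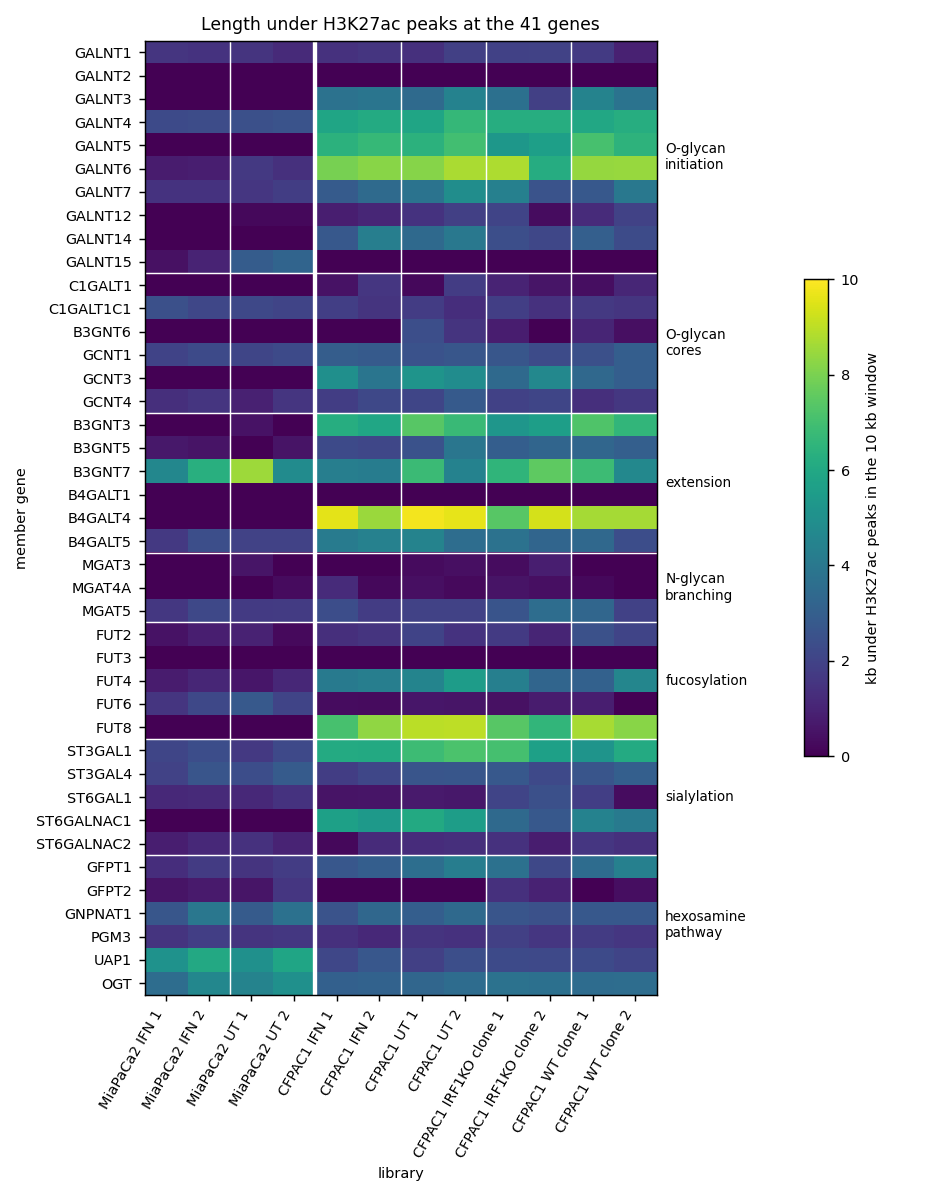
Covered length in kb (colour, 0 to 10 kb) at the chosen end window of the 41 genes (rows, grouped by step) in each of the 12 libraries (columns, MiaPaCa2 left of CFPAC1). GALNT3, GALNT5, GALNT14, GCNT3, B4GALT4, FUT8 and ST6GALNAC1 were at 0 in all 4 MiaPaCa2 libraries and covered in all 8 CFPAC1 libraries, while UAP1 was covered 5006 to 6049 bp in MiaPaCa2 and 1885 to 2716 bp in CFPAC1.

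Promoters of 7 members are printed because the results below turn on them: 4 whose start was marked in CFPAC1 and hardly or not in MiaPaCa2 (GCNT3, GALNT3, GALNT14, B3GNT3) and 3 covered further in MiaPaCa2 (UAP1, GALNT15, GFPT2). They are RefSeq sequences of GRCh38.p14 running from 250 bases before to 50 after the start, 5′ to 3′ on the strand of the gene, with every CpG dinucleotide in capitals. Where several starts were listed for a gene, the start with the most coverage averaged over all 12 libraries was used. The intervals are chr15:59611533-59611832 (plus strand) for GCNT3, chr2:165794198-165794497 (minus) for GALNT3, chr2:31138391-31138690 (minus) for GALNT14, chr19:17794888-17795187 (plus) for B3GNT3, chr1:162561472-162561771 (plus) for UAP1, chr3:16174430-16174729 (plus) for GALNT15 and chr5:180353287-180353586 (minus) for GFPT2.
GCNT3: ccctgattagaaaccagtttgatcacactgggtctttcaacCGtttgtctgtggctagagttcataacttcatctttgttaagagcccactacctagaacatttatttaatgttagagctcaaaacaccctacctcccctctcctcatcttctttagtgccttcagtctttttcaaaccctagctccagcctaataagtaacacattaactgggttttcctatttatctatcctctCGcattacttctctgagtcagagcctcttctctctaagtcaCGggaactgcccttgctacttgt
GALNT3: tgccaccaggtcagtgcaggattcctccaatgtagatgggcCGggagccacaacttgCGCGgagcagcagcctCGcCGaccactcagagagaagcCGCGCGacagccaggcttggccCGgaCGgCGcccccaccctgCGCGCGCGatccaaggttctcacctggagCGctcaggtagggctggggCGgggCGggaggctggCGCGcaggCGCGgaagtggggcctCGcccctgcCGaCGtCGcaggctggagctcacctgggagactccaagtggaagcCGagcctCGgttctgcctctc
GALNT14: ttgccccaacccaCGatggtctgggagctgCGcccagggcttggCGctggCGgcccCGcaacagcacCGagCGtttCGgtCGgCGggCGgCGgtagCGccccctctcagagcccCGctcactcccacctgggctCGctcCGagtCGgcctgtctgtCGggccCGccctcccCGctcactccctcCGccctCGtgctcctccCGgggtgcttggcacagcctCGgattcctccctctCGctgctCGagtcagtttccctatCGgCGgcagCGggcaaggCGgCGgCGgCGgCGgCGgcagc
B3GNT3: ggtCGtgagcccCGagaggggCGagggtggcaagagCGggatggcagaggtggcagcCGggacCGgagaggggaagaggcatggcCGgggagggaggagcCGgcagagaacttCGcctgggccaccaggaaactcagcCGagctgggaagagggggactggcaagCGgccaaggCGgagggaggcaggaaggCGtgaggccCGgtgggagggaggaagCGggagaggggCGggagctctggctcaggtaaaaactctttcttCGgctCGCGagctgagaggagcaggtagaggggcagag
UAP1: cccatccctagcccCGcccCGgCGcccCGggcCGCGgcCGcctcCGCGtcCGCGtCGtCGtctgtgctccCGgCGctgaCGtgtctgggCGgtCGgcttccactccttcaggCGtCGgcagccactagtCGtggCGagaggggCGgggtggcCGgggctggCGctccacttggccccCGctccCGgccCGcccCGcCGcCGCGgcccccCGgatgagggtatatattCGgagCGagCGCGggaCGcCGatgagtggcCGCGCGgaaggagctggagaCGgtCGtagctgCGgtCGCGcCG
GALNT15: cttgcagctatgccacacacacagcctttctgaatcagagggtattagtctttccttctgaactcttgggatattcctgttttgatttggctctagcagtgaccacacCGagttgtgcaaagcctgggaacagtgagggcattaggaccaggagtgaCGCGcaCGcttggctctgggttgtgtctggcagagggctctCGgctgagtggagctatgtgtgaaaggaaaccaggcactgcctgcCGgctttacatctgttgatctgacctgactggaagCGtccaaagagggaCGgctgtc
GFPT2: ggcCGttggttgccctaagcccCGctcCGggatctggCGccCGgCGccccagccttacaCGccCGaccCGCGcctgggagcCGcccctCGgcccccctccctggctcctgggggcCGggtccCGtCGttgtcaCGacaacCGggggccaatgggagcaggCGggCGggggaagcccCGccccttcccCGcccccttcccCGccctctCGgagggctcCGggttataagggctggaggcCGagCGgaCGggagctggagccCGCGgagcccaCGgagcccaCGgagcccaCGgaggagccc

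The 7 promoters span the range of CpG content. GCNT3 held 3 CpG dinucleotides and GALNT15 8, against 19 in B3GNT3, 28 in GALNT3, 32 in GFPT2, 35 in GALNT14 and 48 in UAP1. Among the 32 members with a RefSeq promoter the median was 29.5, against 22 over all 15812 promoters of the table, and the median GC content was 69.0% against 63.0%. These printed bases lay partly under a peak in none of the 4 MiaPaCa2 and all 8 CFPAC1 libraries at GCNT3, GALNT3 and GALNT14. At B3GNT3 they did so in 1 MiaPaCa2 and 8 CFPAC1 libraries, at UAP1 in 4 and 7, and at GALNT15 in 2 and 0. At GFPT2, 3 MiaPaCa2 libraries and 2 CFPAC1 libraries, both from IRF1KO clones, had a peak there. B3GNT5 and FUT2 also had a marked promoter in all 8 CFPAC1 and no MiaPaCa2 library, and 15 of the 32 promoters were marked in every library. CpG number ran from 3 to 35 in the 5 genes marked in CFPAC1 alone and from 9 to 47 in those 15, so the sets overlapped in this property.

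Motifs were searched in both strands of the 32 promoters. The sequence TGANTCA, bound by AP-1, was found in GCNT3 and GALNT15 (2 of 32, against 5.882% of all promoters). A pair of IRF half-sites, GAAA repeated after any 2 bases, was in 0 of 32, against 3.244% of all promoters, and TATAAA in 0 of 32, against 9.701%. TTCNNNGAA, bound by STAT factors, was in B3GNT5, B4GALT5 and FUT6 (3 of 32, against 6.78%), and the GC box GGGCGG in 26 of 32, against 58.797%. These are matches of letters in the windows searched and say nothing of binding.

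The comparison of lines asked how MiaPaCa2 and CFPAC1 differ at these genes, first without treatment. In untreated cells 5 members were called higher and 20 lower in MiaPaCa2 than in CFPAC1, of 38 tested. Over all 15513 genes 29.0% were called higher and 19.9% lower (48.9% in either direction). The median log2 difference was -0.89 over the members and 0.14 over all genes. After IFN, with other libraries, 5 members were called higher and 19 lower, where 24.6% of all genes were called higher and 17.9% lower (42.5% in either direction), and the medians were -0.75 and 0.097. Medians over the members include genes at 0 bp in a line, whose fitted values depend on the 500 bp added. Both comparisons called 22 members, 17 lower and 5 higher in MiaPaCa2, all with the same sign. Of all genes 15.4% were called lower in both and 20.2% higher in both. FUT2, GCNT4 and B3GNT6 were called only without treatment, and MGAT4A and C1GALT1 only after IFN, and for none of these 5 did the difference between the lines' responses pass a test.

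Without reference to any test, 19 members had every MiaPaCa2 library below every CFPAC1 library (17.2% of all genes did), and 4 had every MiaPaCa2 library above (18.2% of all genes). B4GALT4, FUT8, ST6GALNAC1, GCNT3, GALNT3, GALNT5, GALNT14 and C1GALT1 were at 0 bp in all 4 MiaPaCa2 libraries and covered in all 8 CFPAC1 libraries, 8 of 38 members beside 6.33% of all genes. The window is the gene end with more coverage averaged over 12 libraries, 8 of them from CFPAC1, so its choice favours ends marked in CFPAC1. Where a gene had several listed starts, its start was chosen by the same average, so counts at the starts share this preference. B4GALT4, FUT8 and C1GALT1 were at 0 bp at a chosen end away from their RefSeq start, and their starts were covered in all 4 MiaPaCa2 libraries. At the starts, 3 of 30 members tested, GCNT3, GALNT3 and GALNT14, had 0 bp in MiaPaCa2 and coverage in all CFPAC1 libraries, beside 5.56% of 12153 genes. GALNT15 alone among the members had the reverse pattern, which 1.39% of all genes showed (1.16% at the starts). Markers of cell type also differed between the lines, in both directions. All 10 epithelial markers examined were covered in every CFPAC1 library (summed length 48101 to 68151 bp), against 5 to 6 of 10 in MiaPaCa2 (36626 to 38474 bp). EPCAM, CDH1, ESRP1 and GRHL2 were at 0 in MiaPaCa2. KRT7 and CLDN7 were shorter in MiaPaCa2 as well. CLDN4 had 8666 to 9104 bp in MiaPaCa2 and 7130 to 7629 bp in CFPAC1, and KRT8, KRT18 and KRT19 overlapped between the lines. The 7 fibroblast markers summed to 9658 to 11252 bp in MiaPaCa2 and 2331 to 6870 bp in CFPAC1, and they were mixed. COL3A1 had 3414 to 5033 bp in MiaPaCa2 and 0 bp in CFPAC1, and COL1A2 had 5808 to 6250 bp and 0 to 354 bp. COL1A1 ran the other way, with 0 to 200 bp in MiaPaCa2 and 1146 to 3271 bp in CFPAC1. LUM (0 bp and 236 to 1877 bp) and FAP (0 bp and 207 to 1240 bp) did so too. PDGFRB overlapped between the lines, and DCN had 0 bp in all 12 libraries. The 6 mesenchymal markers summed to 11898 to 13747 bp in MiaPaCa2 and 10543 to 20944 bp in CFPAC1, and they were mixed. VIM had 8667 to 9632 bp in MiaPaCa2 and 3583 to 6334 bp in CFPAC1. ZEB1 had 3231 to 3850 bp in MiaPaCa2 and 4130 to 6201 bp in CFPAC1, and CDH2 had 0 bp and 1350 to 5046 bp. FN1 and ZEB2 had 0 bp in MiaPaCa2 and up to 1925 and 2747 bp in CFPAC1. TWIST1 had up to 407 bp in MiaPaCa2 and 0 bp in CFPAC1. Of 7 leukocyte markers 2 were covered in MiaPaCa2 (398 to 3702 bp) and 3 in CFPAC1 (2404 to 7091 bp), with PTPRC, CD3D and MS4A1 at 0 in all 12 libraries. Whether these marker differences have a part in the glycan genes was not tested.

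**Figure D2:**
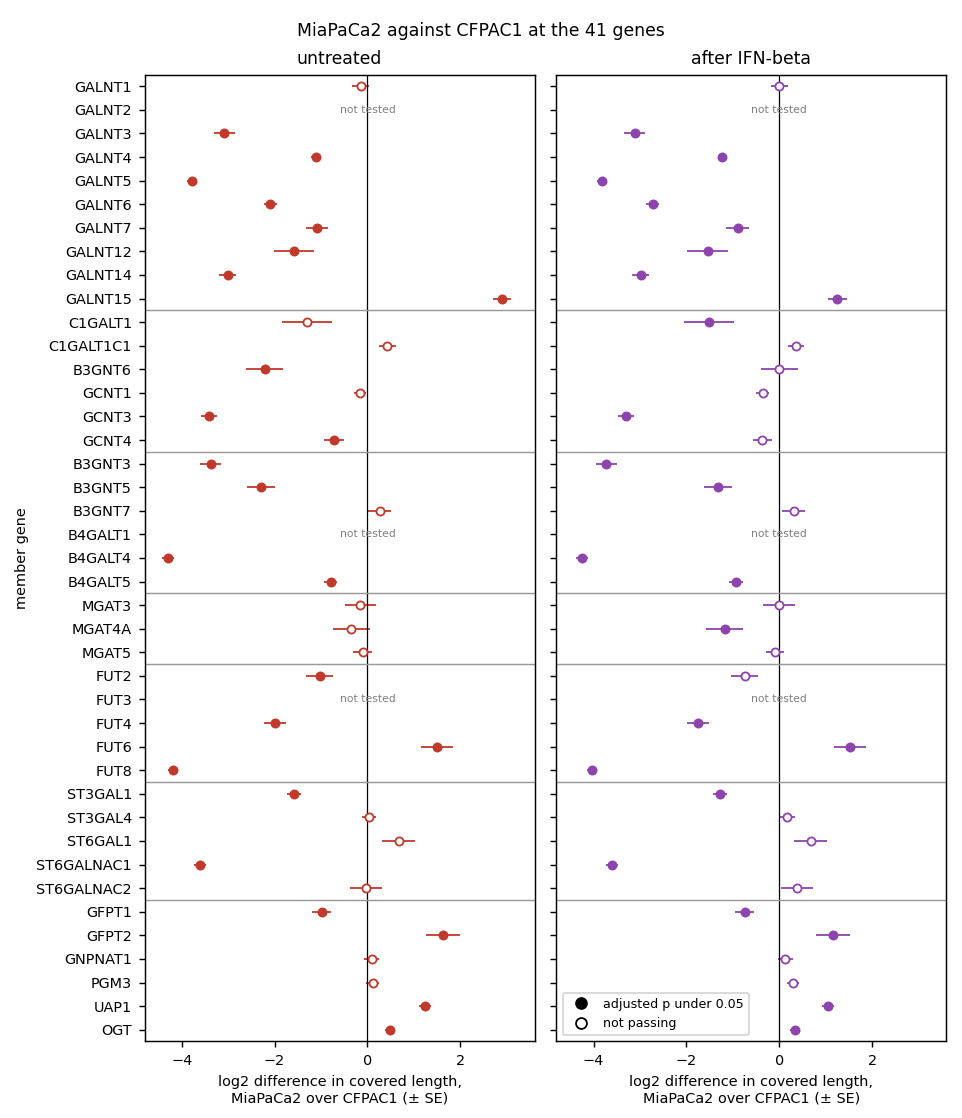
Log2 difference in covered length (x axis, MiaPaCa2 over CFPAC1, with SE) for each member (rows) without treatment (left) and after IFN-β (right), 2 libraries a group; filled points passed an adjusted p of 0.05. Points left of 0 include 20 called members without treatment and 19 after IFN; at members with 0 bp in a line the position depends on the 500 bp added.

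The hexosamine pathway was the one step with more members called higher than lower in MiaPaCa2. Of 6 members, 3 were called higher and 1 lower in each state of treatment, and the other 2 did not pass. Of all genes 29.0% were called higher and 19.9% lower without treatment, and 24.6% and 17.9% after IFN. The count rests on few genes and includes OGT, which uses the product of the pathway. Over the whole gene 2 were called higher and 1 lower without treatment, where 36.1% of all genes were higher and 22.5% lower. UAP1, which makes UDP-N-acetylglucosamine in the last step of the pathway, had 5006 and 5872 bp in untreated MiaPaCa2, against 1885 and 2407 bp in untreated CFPAC1. After IFN it had 5101 and 6049 bp, against 2144 and 2716 bp. The log2 difference was 1.23 ± 0.13 without treatment (adjusted p = 4.59e-05) and 1.05 ± 0.13 after IFN (adjusted p = 1.41e-04), and no MiaPaCa2 library fell within the CFPAC1 range. The call was lost by number of peaks without treatment (0.11, adjusted p = 0.767) and with a 2 kb window after IFN (0.25, adjusted p = 0.0871). The authors' fold of the highest peak at UAP1 ranked at the 91.22 to 94.79 percentile of its list in MiaPaCa2 and at the 86.23 to 98.09 percentile in CFPAC1, and these ranges overlapped.

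GFPT2 and GFPT1 are alternative forms of the enzyme that commits fructose 6-phosphate to the pathway, and they differed in opposite directions. GFPT2 had 560 and 1566 bp in untreated MiaPaCa2 and 513 and 742 bp after IFN, against 0 bp in all 4 bulk CFPAC1 libraries (adjusted p = 0.00492 without treatment and 0.0276 after IFN). GFPT1 had 1491 and 1783 bp in untreated MiaPaCa2, against 3605 and 4223 bp in untreated CFPAC1, a log2 difference of -0.99 ± 0.21 (adjusted p = 0.00346). After IFN GFPT1 had 1291 and 1731 bp, against 2708 and 2976 bp, a difference of -0.75 ± 0.21 (adjusted p = 0.0163). The GFPT2 call after IFN was lost without any 1 of the 4 libraries (adjusted p from 0.0834 without IFN-treated MiaPaCa2 library 1 to 0.115 without library 2). For GFPT1 it was lost without IFN-treated CFPAC1 library 1 (adjusted p = 0.0542) or 2 (0.0805) and without IFN-treated MiaPaCa2 library 1 (0.0895).

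OGT, which transfers N-acetylglucosamine to nuclear and cytoplasmic proteins, had 4473 and 5013 bp in untreated MiaPaCa2, against 3292 and 3518 bp in untreated CFPAC1. The log2 difference was 0.48 ± 0.10 (adjusted p = 0.00322), and 0.34 ± 0.10 after IFN (adjusted p = 0.0224). Its window also holds an end of TAF1. After IFN the OGT call was lost without CFPAC1 library 1 (adjusted p = 0.0935) or 2 (0.0873) and without MiaPaCa2 library 2 (0.142), and counting peaks in place of bp turned the sign (-0.18 without treatment and -0.48 after IFN). The untreated OGT call was lost with a 10 kb window (0.33, adjusted p = 0.123) and over the whole gene (0.40, adjusted p = 0.129). GNPNAT1, which acetylates glucosamine 6-phosphate, had 2672 to 3961 bp in MiaPaCa2 and 2468 to 3410 bp in CFPAC1. PGM3, the mutase of the next step, had 1485 to 1859 bp in MiaPaCa2 and 1141 to 1897 bp in CFPAC1, in a window shared with RWDD2A. Neither of these passed in either state.

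Among the initiating GALNT enzymes, 7 of 9 tested were called lower in MiaPaCa2 and GALNT15 was called higher, in both states. The shares of all genes were 19.9% lower and 29.0% higher without treatment, and 17.9% and 24.6% after IFN. GALNT3, GALNT5 and GALNT14 had 0 bp in every MiaPaCa2 library. GALNT5 (window chr2:157252705-157262705, GRCh38) had 6443 and 6963 bp in untreated CFPAC1 (adjusted p = 8.65e-09 for the line difference) and 6442 and 6697 bp after IFN (adjusted p = 8.76e-09). GALNT3, known for glycosylating the phosphate hormone FGF23, had 3464 and 4419 bp in untreated CFPAC1 (adjusted p = 3.78e-06) and 3779 and 3876 bp after IFN (adjusted p = 3.58e-06). GALNT14, which has been linked to sensitivity to the death ligand TRAIL, had 3402 and 4018 bp in untreated CFPAC1 (adjusted p = 1.29e-06) and 2760 and 4290 bp after IFN (adjusted p = 1.47e-06). At all 3 genes the mark in CFPAC1 was strong as well as long: the highest peak ranked at the 77.24 percentile of its list or above in each of the 8 libraries.

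The other 4 lowered GALNT genes kept some mark in untreated MiaPaCa2. GALNT6, an enzyme often raised in carcinomas, had 1651 and 1395 bp in untreated MiaPaCa2, against 8188 and 8738 bp in untreated CFPAC1 (log2 difference -2.09 ± 0.13, adjusted p = 1.54e-06). After IFN it had 750 and 850 bp, against 7961 and 8223 bp (-2.73 ± 0.13, adjusted p = 2.90e-07). Its window also holds an end of SLC4A8. GALNT4, which prefers peptides that already carry sugar, had 2442 and 2541 bp in untreated MiaPaCa2, against 5888 and 6654 bp (-1.12 ± 0.10, adjusted p = 1.36e-05), and the difference after IFN was -1.23 ± 0.10 (adjusted p = 7.46e-06). GALNT4 shares its window with ends of POC1B and of 2 POC1B readthrough genes, so the lengths cannot be assigned to it alone.

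GALNT7, a second enzyme that acts on partly glycosylated peptides, had 1568 and 1800 bp in untreated MiaPaCa2, against 3808 and 4904 bp in untreated CFPAC1 (-1.09 ± 0.24, adjusted p = 0.00457). After IFN the GALNT7 difference was -0.90 ± 0.24 (adjusted p = 0.0133), lost without CFPAC1 library 2 (adjusted p = 0.0815) or MiaPaCa2 library 2 (0.0801). GALNT12, germline variants of which have been studied in colorectal cancer, had 200 bp in each untreated MiaPaCa2 library and 0 bp in each treated one, against 1475 and 1897 bp in untreated and 836 and 1084 bp in treated CFPAC1. It was called without treatment (-1.58 ± 0.43, adjusted p = 0.0134) and after IFN (adjusted p = 0.0164). The untreated call was lost without CFPAC1 library 2 (adjusted p = 0.0717) and without MiaPaCa2 library 1 (0.0562) or 2 (0.0501), and the call after IFN without any 1 library (adjusted p = 0.0521 to 0.0835).

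GALNT15, a less studied member of the family, ran the other way. It had 2926 and 3221 bp in untreated MiaPaCa2 and 467 and 980 bp after IFN, against 0 bp in all 8 CFPAC1 libraries (adjusted p = 2.47e-06 without treatment and 7.28e-04 after IFN). GALNT1, a broadly expressed initiator, did not pass in either state. It had 1517 and 1200 bp in untreated MiaPaCa2, against 1395 and 1905 bp in untreated CFPAC1. The end window of GALNT2, another broadly expressed initiator, was empty everywhere, and that gene end lies 9.45 kb before its RefSeq start. In the 5 kb either side of the start, GALNT2 had 2093 to 2427 bp in MiaPaCa2 and 2926 to 4249 bp in CFPAC1.

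Of the 6 core genes, 3 were called lower in untreated MiaPaCa2 and 2 after IFN, beside 19.9% and 17.9% of all genes. GCNT3, which makes the branched core 2 and core 4 of mucins, had 0 bp in every MiaPaCa2 library, against 5161 and 4869 bp in untreated CFPAC1 (adjusted p = 3.12e-07) and 4989 and 3870 bp after IFN (adjusted p = 4.09e-07). Its printed promoter is the one with 3 CpG dinucleotides. GCNT1, the core 2 enzyme typical of leukocytes, had 2098 and 2229 bp in untreated MiaPaCa2, against 2534 and 2692 bp in untreated CFPAC1, and did not pass (-0.17 ± 0.13, adjusted p = 0.338). Its window is shared with RFK. GCNT4, another core 2 enzyme, had 924 and 1559 bp, against 2090 and 2828 bp (-0.72 ± 0.21, adjusted p = 0.0176). That call was lost without untreated CFPAC1 library 2 (adjusted p = 0.123) or MiaPaCa2 library 1 (0.129).

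C1GALT1 makes core 1, and C1GALT1C1, also called COSMC, is the chaperone it needs. C1GALT1 had 0 bp in MiaPaCa2 and 222 and 1772 bp in untreated CFPAC1 (adjusted p = 0.0694), then 473 and 1574 bp in treated CFPAC1 (adjusted p = 0.0443). The second call was lost without IFN-treated CFPAC1 library 2 (adjusted p = 0.273), MiaPaCa2 library 1 (0.117) or MiaPaCa2 library 2 (0.16). The chosen end of C1GALT1 lies 25.17 kb from its RefSeq start, where both lines were covered, 1730 and 1873 bp in untreated MiaPaCa2 and 4500 and 5040 bp in untreated CFPAC1. C1GALT1C1 had 2161 and 2045 bp in untreated MiaPaCa2, against 1767 and 1294 bp in untreated CFPAC1, and did not pass (0.43 ± 0.18, adjusted p = 0.0719), although all 4 MiaPaCa2 libraries lay above all 8 CFPAC1 libraries. B3GNT6, the core 3 synthase of gut mucins, had 0 bp in MiaPaCa2, against 2417 and 1503 bp in untreated CFPAC1 (adjusted p = 0.00142) and 0 bp in treated CFPAC1. The untreated B3GNT6 call was lost at a −log10 q of at least 5 (adjusted p = 0.173) and with peak numbers made equal across libraries (adjusted p = 0.983).

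Of the chain extension genes, 4 of 5 tested were called lower in MiaPaCa2, in both states (19.9% of all genes without treatment, 17.9% after IFN). B4GALT4, a galactosyltransferase of sulfated chains (window chr3:119206742-119216742), had 0 bp in MiaPaCa2, against 9835 and 9614 bp in untreated CFPAC1 (adjusted p = 1.22e-08) and 9578 and 8487 bp after IFN (adjusted p = 1.36e-08). Its chosen end lies 29.14 kb from the RefSeq start. At the start itself B4GALT4 was covered in both lines, 2302 and 2189 bp in untreated MiaPaCa2 and 5816 and 5398 bp in untreated CFPAC1. B3GNT3, which extends core 1 in selectin ligands, had 477 and 0 bp in untreated MiaPaCa2 and 0 bp after IFN, against 7404 and 6782 bp in untreated and 6227 and 5937 bp in treated CFPAC1. The B3GNT3 difference was -3.38 ± 0.23 without treatment (adjusted p = 2.61e-06), and the adjusted p after IFN was 1.43e-06.

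B3GNT5, which begins the lacto-series glycolipids, had 0 and 518 bp in untreated MiaPaCa2 and 631 and 532 bp after IFN, against 2525 and 3934 bp in untreated and 2257 and 2145 bp in treated CFPAC1. The log2 difference was -2.30 ± 0.30 (adjusted p = 2.01e-04) and -1.33 ± 0.30 (adjusted p = 0.00592) in the 2 states. B4GALT5, a lactosylceramide synthase, had 1992 and 1984 bp in untreated MiaPaCa2, against 4463 and 3555 bp (-0.79 ± 0.14, adjusted p = 0.00153), and the difference after IFN was -0.93 ± 0.14 (adjusted p = 6.33e-04). B3GNT7, an enzyme of keratan sulfate chains, did not pass. It had 8542 and 4825 bp in untreated MiaPaCa2, against 6829 and 4426 bp in untreated CFPAC1. B4GALT1, the main galactosyltransferase of N-glycans, had an empty end window lying 63.08 kb from its start, and at the start it had 1601 to 1820 bp in MiaPaCa2 and 4385 to 5797 bp in CFPAC1.

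The N-glycan branching genes differed little at their ends. MGAT5, which adds the branch linked to metastasis in mouse models, had 1700 and 1745 bp in untreated MiaPaCa2, against 1985 and 1992 bp in untreated CFPAC1 (-0.10 ± 0.20, adjusted p = 0.695). MGAT3, which adds the bisecting sugar, had 548 and 0 bp, against 285 and 401 bp, and MGAT4A, which makes another branch, had 0 and 293 bp, against 418 and 256 bp. Neither passed without treatment. MGAT4A was called lower after IFN, with 0 bp in MiaPaCa2 and 1246 and 229 bp in CFPAC1 (adjusted p = 0.0346). The MGAT4A call was lost without CFPAC1 library 1 (adjusted p = 0.279), MiaPaCa2 library 1 (0.0924) or MiaPaCa2 library 2 (0.141).

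Fucosylation genes split. FUT8, the only enzyme of core fucose on N-glycans (window chr14:65351842-65361842), had 0 bp at its chosen end in MiaPaCa2, against 8973 and 9012 bp in untreated CFPAC1 (adjusted p = 8.23e-09) and 7076 and 8359 bp after IFN (adjusted p = 8.76e-09). That end lies 55.89 kb before the RefSeq start. At the RefSeq start FUT8 had 2579 and 2651 bp in untreated MiaPaCa2 and 7943 and 8058 bp in untreated CFPAC1, so the start was marked in both lines. FUT4, which makes Lewis x, had 590 and 1117 bp in untreated MiaPaCa2, against 4524 and 5529 bp (-1.99 ± 0.24, adjusted p = 1.23e-04), and the difference after IFN was -1.75 ± 0.24 (adjusted p = 3.02e-04). FUT2, the secretor enzyme of the H antigen, had 953 and 243 bp, against 2002 and 1452 bp (-1.03 ± 0.29, adjusted p = 0.0156). The FUT2 call was lost without untreated CFPAC1 library 1 (adjusted p = 0.101) or MiaPaCa2 library 2 (0.112).

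FUT6, which makes sialyl Lewis x, was covered further in MiaPaCa2. It had 2782 and 2068 bp in untreated and 1545 and 2179 bp in treated MiaPaCa2, against 606 and 548 bp in untreated and 333 and 294 bp in treated CFPAC1. The difference was 1.49 ± 0.35 without treatment (adjusted p = 0.00591) and 1.52 ± 0.35 after IFN (adjusted p = 0.00594). The highest peak in the window ranked at the 96.74 to 98.72 percentile of its list in MiaPaCa2 and at the 12.62 to 68.06 percentile in the 7 CFPAC1 libraries that had one. The window also holds an end of NRTN and lies 9.29 kb from the RefSeq start of FUT6, where all 12 libraries had 0 bp. FUT3, the Lewis enzyme behind the sialyl Lewis a marker of pancreatic cancer, had 0 bp at its ends, at its start and over the whole gene in all 12 libraries.

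Of the sialylation genes, 2 of 5 were called lower in MiaPaCa2 in both states (19.9% of all genes without treatment, 17.9% after IFN). ST6GALNAC1, which makes the sialyl-Tn antigen (window chr17:76638757-76648757), had 0 bp in MiaPaCa2, against 6058 and 5575 bp in untreated CFPAC1 (adjusted p = 3.56e-08) and 5691 and 5428 bp after IFN (adjusted p = 3.71e-08). ST3GAL1, which caps core 1, had 1653 and 2208 bp in untreated MiaPaCa2, against 6845 and 7167 bp in untreated CFPAC1 (-1.58 ± 0.15, adjusted p = 2.61e-05). After IFN the ST3GAL1 difference was -1.27 ± 0.15 (adjusted p = 1.16e-04). ST3GAL4, ST6GAL1 and ST6GALNAC2 did not pass. ST6GAL1, which caps N-glycans in the α2,6 linkage, had 1162 and 1482 bp, against 737 and 643 bp (0.67 ± 0.35, adjusted p = 0.14). ST3GAL4, which adds α2,3-linked sialic acid, had 2347 and 2868 bp in untreated MiaPaCa2, against 2631 and 2657 bp, and ST6GALNAC2, which sialylates the first sugar of core 1, had 1432 and 982 bp, against 1258 and 1354 bp.

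Covered length was also summed over each whole gene with 5 kb on either side, an alternative added after the end windows had been seen. The members then held 64.48 to 90.4 kb under peaks in a MiaPaCa2 library and 277.87 to 351.98 kb in a CFPAC1 library. In untreated cells 6 members were called higher and 27 lower of 40 tested, where 36.1% of all genes were called higher and 22.5% lower (58.6% in either direction). After IFN 7 were called higher and 23 lower, where 32.3% of genes were higher and 21.0% lower (53.2% in either direction). The median log2 difference without treatment was -1.68 over the members and 0.25 over all 16284 genes tested. For 8 members the whole gene was called lower although the end window was not: B4GALT1, ST3GAL4, GCNT1, GALNT1, GALNT2, C1GALT1, MGAT3 and MGAT5. For 2 members, ST6GALNAC2 and C1GALT1C1, the whole gene alone was called higher, and 2 others, GALNT12 and OGT, were called at the end window and not over the whole gene.

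Values are given for 3 of the 8 with a lower whole gene. GALNT2 had 4.53 and 5.30 kb over the gene in untreated MiaPaCa2, against 41.81 and 29.94 kb in untreated CFPAC1 (-2.49 ± 0.20, adjusted p = 7.24e-06). MGAT5 had 1.70 and 1.74 kb, against 23.87 and 22.76 kb (-3.18 ± 0.22, adjusted p = 3.11e-06). GALNT1 had 1.52 and 1.20 kb, against 6.92 and 8.29 kb (-1.89 ± 0.17, adjusted p = 1.61e-05). In MiaPaCa2 the peaks of MGAT5 lay in its end window, whereas CFPAC1 had further peaks over the gene.

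Among the 32 members with a RefSeq start, 22 were covered within 5 kb of it in all 12 libraries, and the whole gene was called lower in MiaPaCa2 for 15 of them and higher for 2, C1GALT1C1 and UAP1. Of 9099 genes with a start covered in all 12 libraries, 15.4% were called lower over the whole gene and 42.4% higher. FUT8 had 2.58 and 2.65 kb over the gene in untreated MiaPaCa2, against 34.60 and 44.27 kb in untreated CFPAC1 (adjusted p = 7.73e-08), and GALNT7 had 1.77 and 2.01 kb, against 19.26 and 30.20 kb (adjusted p = 2.92e-05). UAP1 ran the other way, with 8.25 and 15.33 kb, against 1.88 and 2.41 kb (2.4 ± 0.31, adjusted p = 1.60e-04). GCNT3, GALNT3 and GALNT14 had 0 bp at the start and over the gene in every MiaPaCa2 library. The starts alone gave 4 members called higher and 17 lower of 30 tested without treatment, where 28.2% of 12153 genes were higher and 19.3% lower (47.4% in either direction). After IFN they gave 4 higher and 16 lower, where 24.1% of genes were higher and 17.7% lower (41.8% in either direction).

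**Figure D3:**
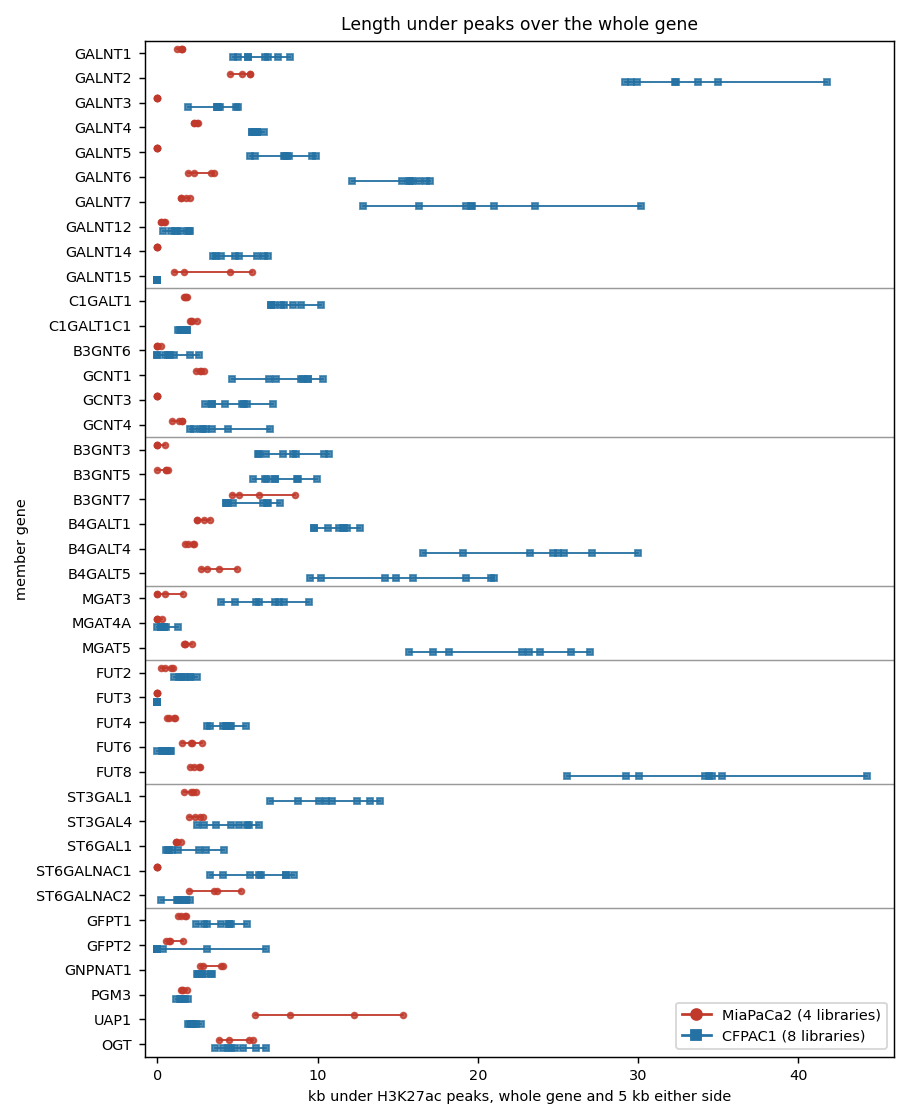
Covered length in kb (x axis) over the whole gene and 5 kb either side for each member (rows), with MiaPaCa2 libraries as circles above the CFPAC1 libraries as squares and a line over each range. GALNT2, MGAT5, GALNT7 and FUT8 lay at or below 5.80 kb in MiaPaCa2 and at or above 12.81 kb in CFPAC1, and UAP1 lay at 6.10 to 15.33 kb in MiaPaCa2 and 1.88 to 2.72 kb in CFPAC1.

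The treatment comparison asked what 2 h of IFN did at these genes within a line. In CFPAC1, 1 of 38 members was called, B3GNT6 (lower), beside 0.986% of all genes (0.677% higher and 0.309% lower), and the median log2 change was 0.0064 over the members and 0.042 over all genes. In MiaPaCa2, 1 of 38 was called, GALNT15 (lower), beside 0.651% of all genes (0.561% higher and 0.0902% lower), with medians of 0.081 and 0.030. No member passed for a difference in response between the lines by limma, beside 0.0580% of all genes called (0.0322% higher and 0.0258% lower). An unadjusted p under 0.05 was reached by 4 of 38 members, and the share of all genes at that level is not given here.

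B3GNT6 had no peak in its window in either IFN-treated CFPAC1 library, against 7 and 3 peaks covering 2417 and 1503 bp in the untreated ones (adjusted p = 0.0427). The untreated peaks ranked low in their lists, the highest at the 35.17 and 35.43 percentile. The clones, also without IFN, had 797 and 0 bp in IRF1KO and 1051 and 412 bp in WT, so untreated CFPAC1 chromatin ranged from 0 to 2417 bp here. Over the whole gene B3GNT6 had 0 kb in both IFN-treated libraries, against 2.62 and 2.05 kb in the untreated ones (adjusted p = 0.00757), where 1.01% of all genes were called (0.780% higher and 0.233% lower). The call at the gene end was lost without any 1 library (adjusted p = 0.236 without IFN library 1, 0.166 without IFN library 2, 0.262 without UT library 1 and 0.129 without UT library 2). With the same number of peaks kept in each library the fitted change turned to 0.11, and the adjusted p ran from 0.00326 to 0.964 over the alternatives.

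GALNT15 had 1 and 2 peaks covering 467 and 980 bp in IFN-treated MiaPaCa2, against 5 and 5 peaks covering 2926 and 3221 bp in untreated MiaPaCa2, and the groups did not overlap (-1.50 ± 0.20, adjusted p = 0.008). Over the whole gene it had 1.04 and 1.66 kb, against 5.88 and 4.51 kb (-1.53 ± 0.20, adjusted p = 0.00789), where 0.645% of all genes were called (0.583% higher and 0.0614% lower). Each MiaPaCa2 library had a peak at the far gene end as well, 73.08 to 73.21 kb from the start. The printed promoter of GALNT15 was under a peak in both untreated and neither treated library. The highest peak also ranked lower after IFN, at the 33.37 and 36.67 percentile, against the 75.39 and 72.07 percentile. The SE of the GALNT15 change is pooled over all 6 groups, and the 8 CFPAC1 libraries at 0 bp add little spread to it. The call was lost with only the libraries of this comparison, with an offset of 100 bp and by number of peaks. It was also lost without IFN library 1, where the fitted change was -1.28. The difference in response between CFPAC1, where GALNT15 had 0 bp throughout, and MiaPaCa2 did not pass (adjusted p = 0.0929).

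Other members changed less than the threshold required. In CFPAC1 the largest fitted changes were at 3 genes. MGAT3 had 0 and 0 bp after IFN, against 285 and 401 bp in untreated cells (adjusted p = 0.573). MGAT4A had 1246 and 229 bp, against 418 and 256 bp in untreated cells (0.58 ± 0.39, adjusted p = 0.657). ST6GALNAC2 had 233 and 1243 bp, against 1258 and 1354 bp in untreated cells (-0.53 ± 0.34, adjusted p = 0.637). At both MGAT4A and ST6GALNAC2, 1 IFN library lay beside the untreated libraries and the other apart from them. In MiaPaCa2 B3GNT5 had 631 and 532 bp after IFN, against 0 and 518 bp in untreated cells (0.68 ± 0.30, adjusted p = 0.682). GALNT6 had 750 and 850 bp, against 1651 and 1395 bp in untreated cells (-0.56 ± 0.13, adjusted p = 0.159), and the groups did not overlap. MGAT3 had 0 bp in both treated libraries, against 548 and 0 bp (adjusted p = 0.985). Without untreated MiaPaCa2 library 2, B3GNT5 was called higher (1.21, adjusted p = 0.042) and B3GNT3 lower (-0.87, adjusted p = 0.0147), which made 3 calls in place of 1. For the difference in response, B3GNT6 (adjusted p = 0.295), GALNT15 and B3GNT5 (-0.97, adjusted p = 0.662) had the largest fitted values.

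**Figure D4:**
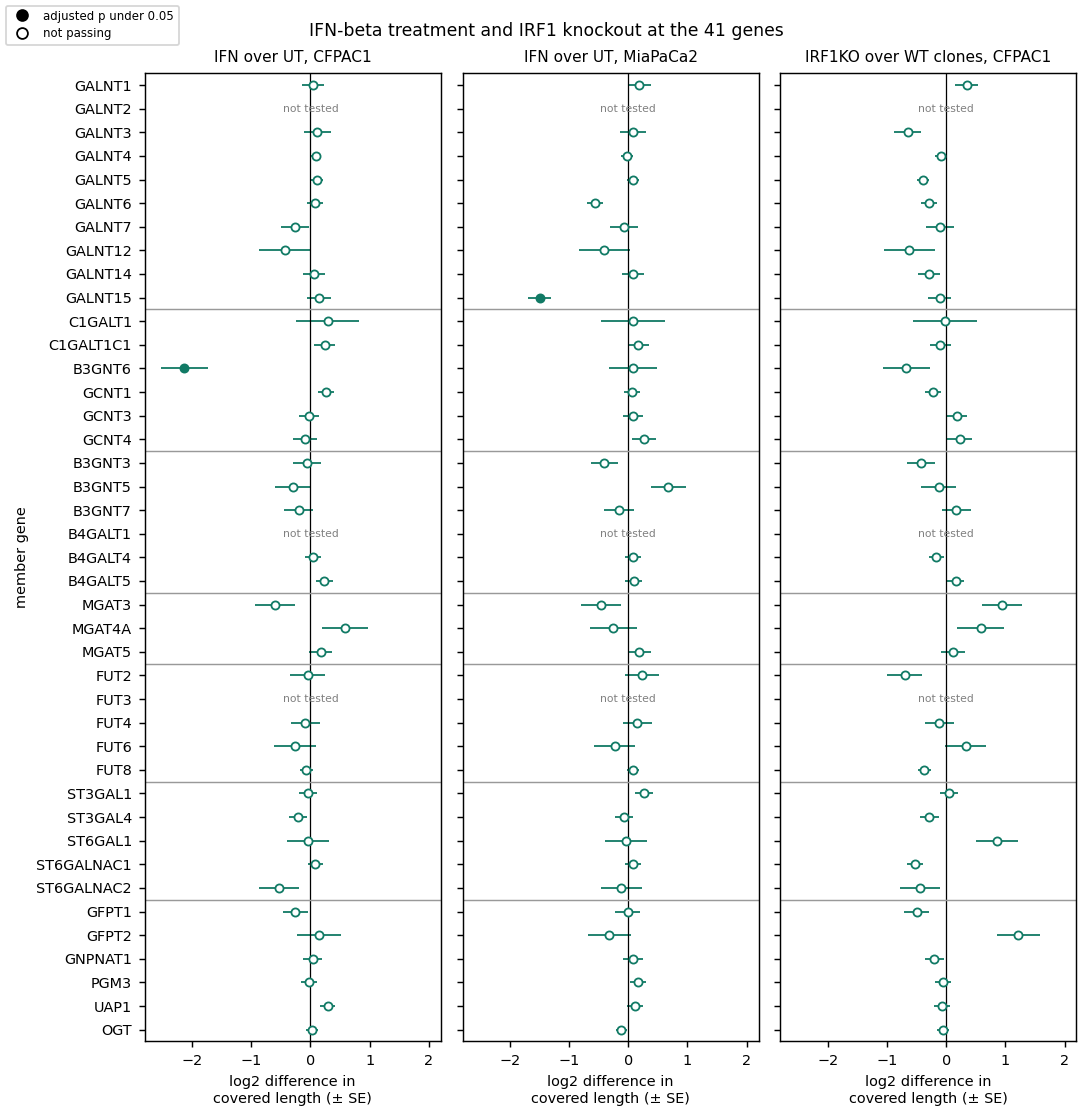
Log2 difference in covered length with SE (x axis) for each member (rows): IFN over UT in CFPAC1 (left), IFN over UT in MiaPaCa2 (middle) and IRF1KO over WT clones (right), 2 libraries a group; filled points passed an adjusted p of 0.05. B3GNT6 in CFPAC1 and GALNT15 in MiaPaCa2 are the only filled points, and GFPT2 lies at 1.22 in the clones without passing.

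The clone comparison asked what loss of IRF1 changed in CFPAC1. The window at IRF1 itself was covered 7533 and 8924 bp in the IRF1KO clones, against 5485 and 5611 bp in the WT clones. An edit of the coding sequence need not remove the mark, so this does not check the knockout. No member was called by limma at the gene ends, beside 1.25% of all genes called (0.709% higher and 0.541% lower). An unadjusted p under 0.05 was reached by 9 of 38 members, and the share of all genes at that level is not given here. The median log2 difference was -0.11 over the members and -0.050 over all genes. The smallest adjusted p was at ST6GALNAC1, with 3430 and 2769 bp in IRF1KO, against 4445 and 4115 bp in WT (-0.53 ± 0.13, adjusted p = 0.102). GALNT5 had 5300 and 5643 bp, against 7099 and 6458 bp (-0.40 ± 0.10, adjusted p = 0.119). Groups did not overlap at either gene.

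The largest fitted differences were at GFPT2, MGAT3 and ST6GAL1. GFPT2 had 1384 and 957 bp in IRF1KO, against 0 and 373 bp in WT (1.22 ± 0.37, adjusted p = 0.17). MGAT3 had 315 and 822 bp in IRF1KO, against 0 bp in WT (adjusted p = 0.244). ST6GAL1 had 2036 and 2457 bp, against 1854 and 330 bp (0.86 ± 0.35, adjusted p = 0.303), so WT clone 1 was close to the IRF1KO clones. Without WT clone 1, ST6GAL1 was called higher (1.53, adjusted p = 0.027). Without IRF1KO clone 1, GALNT12 (-1.43, adjusted p = 0.0292), GALNT3 (-1.04, adjusted p = 0.0145), GFPT1 (-0.81, adjusted p = 0.0489), ST6GALNAC1 (-0.64, adjusted p = 0.048) and GALNT6 (-0.51, adjusted p = 0.0398) were called lower, and the count of calls was 5 in place of 0. That fit rests on IRF1KO clone 2, whose 10 epithelial markers summed to 48101 bp. The sum was 61788 bp in IRF1KO clone 1 and 68033 and 66021 bp in the WT clones. In IRF1KO clone 2 GRHL2 had 299 bp, against 7374 and 6433 bp in WT, and ESRP1 had 500 bp, against 4833 and 4278 bp. EPCAM, CDH1, KRT7, KRT8, KRT18 and CLDN7 were also shorter there than in both WT clones, by less. KRT19 (9822 bp, against 9701 and 9554 bp) and CLDN4 (7333 bp, against 7629 and 7315 bp) were not.

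Over the whole gene, 2 of 40 members were called between the clones, beside 1.24% of all genes (0.645% higher and 0.596% lower). GFPT2 was higher, with 6.75 and 3.07 kb in IRF1KO, against 0 and 0.37 kb in WT (2.81 ± 0.42, adjusted p = 0.0288). Much of this lay inside the gene: each IRF1KO clone had 6 peaks there, spanning chr5:180328927-180335098 in clone 1 and chr5:180323583-180335220 in clone 2 (GRCh38), 18.24 to 29.6 kb from the RefSeq start. Neither WT clone and none of the 4 bulk CFPAC1 libraries had a peak in that stretch, and the 4 MiaPaCa2 libraries had peaks at the start with 1 small peak elsewhere. GALNT5 was lower over the whole gene, with 5.75 and 6.10 kb, against 9.87 and 7.88 kb (-0.67 ± 0.13, adjusted p = 0.0495). The share of each library's covered length on a chromosome differed between clones. Chromosome 5, with GFPT2, took 4.881% and 5.755% in IRF1KO, against 4.281% and 5.23% in WT, and chromosome 20, with B4GALT5, took 3.26% and 3.515%, against 2.619% and 1.851%. Chromosome 8, with ST3GAL1, took 4.054% in IRF1KO clone 1 and 2.555% in clone 2, against 3.696% and 4.126% in WT. The mesenchymal, fibroblast, leukocyte and endothelial marker lists were longer in both IRF1KO clones than in both WT clones. The acinar list was not, with 1556 and 3400 bp in IRF1KO, against 2697 and 1466 bp in WT. Mesenchymal markers summed to 17838 and 20944 bp in IRF1KO, against 16516 and 15486 bp in WT. Within that list ZEB2, CDH2 and FN1 were longer in both IRF1KO clones, and VIM overlapped. ZEB1 was shorter, with 4130 and 4892 bp in IRF1KO, against 5479 and 6201 bp in WT. Fibroblast markers summed to 5414 and 6870 bp, against 4770 and 4808 bp, leukocyte markers to 6448 and 7091 bp, against 3428 and 4522 bp, and endothelial markers to 6294 and 8415 bp, against 5553 and 4106 bp. The part of these shares and markers in the clone results, GFPT2 included, was not tested.

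**Figure D5:**
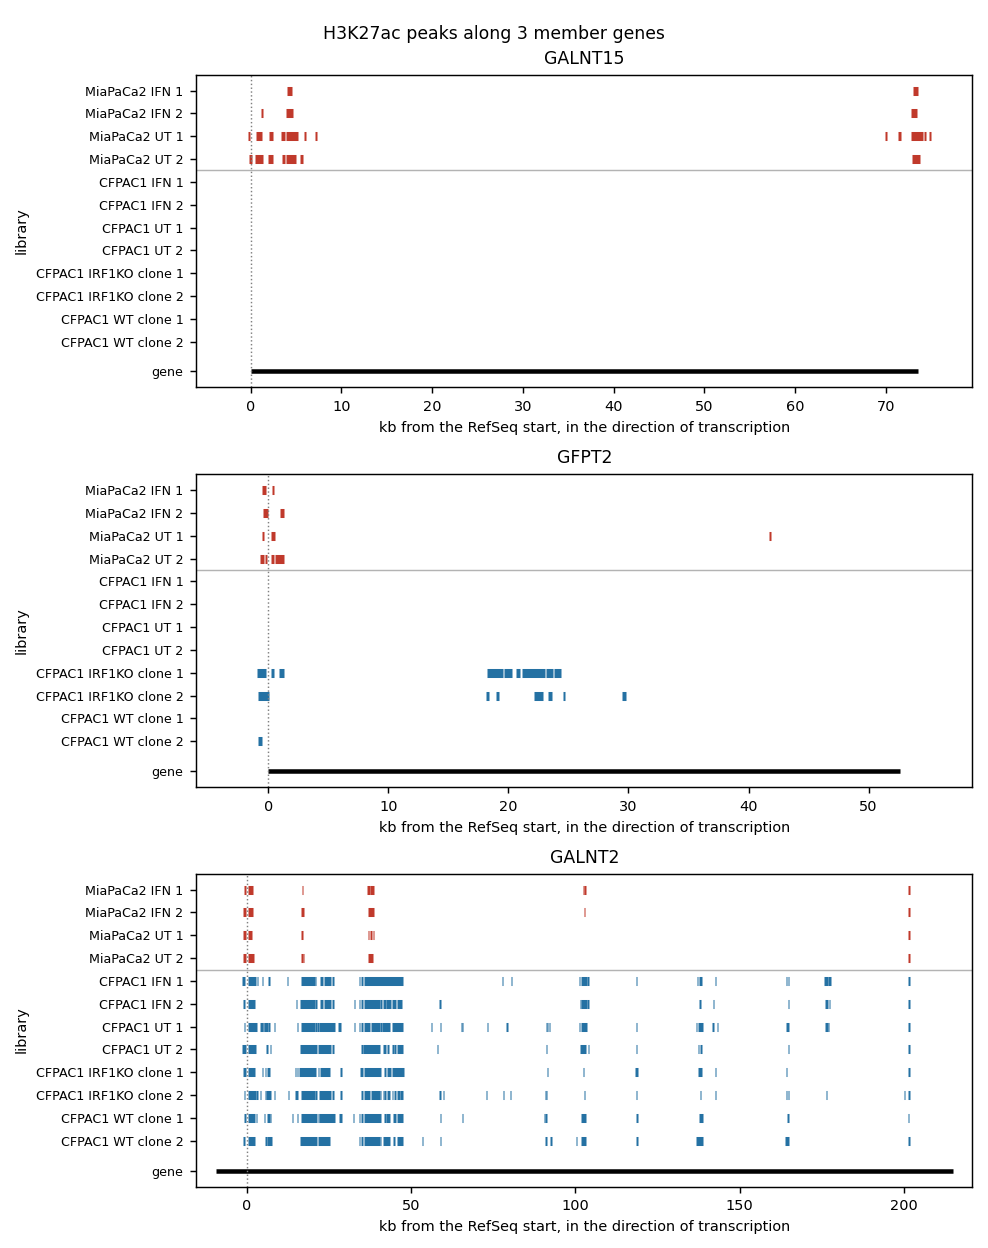
Peaks (bars) along GALNT15, GFPT2 and GALNT2 in each of the 12 libraries (rows, MiaPaCa2 in red above CFPAC1 in blue), by distance in kb from the RefSeq start (dotted line); the black bar is the gene. GALNT15 had peaks in MiaPaCa2 alone and fewer after IFN, GFPT2 had a stretch 18.24 to 29.6 kb inside the gene in the 2 IRF1KO clones, and GALNT2 had 29.18 to 41.81 kb under peaks in CFPAC1, against 4.53 to 5.80 kb in MiaPaCa2.

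Of 66 further genes of the same pathways, 62 were in the gene table and 52 passed the filter. Between untreated lines 11 were called higher and 11 lower in MiaPaCa2, beside 48.9% of all genes called (29.0% higher and 19.9% lower). After IFN 13 were higher and 12 lower, beside 42.5% of all genes (24.6% higher and 17.9% lower), with median log2 differences of 0.10 and 0.0003. The share of this wider list that was called lay near the share of all genes. B3GALT5, which makes type 1 chains, had 0 bp in MiaPaCa2, against 6736 and 6765 bp in untreated CFPAC1 (adjusted p = 9.15e-09), and B3GALT2 had 0 bp, against 786 and 4454 bp (adjusted p = 0.00957). ST6GALNAC6, a sialyltransferase of gangliosides, had 6170 and 3487 bp in untreated MiaPaCa2, against 629 and 0 bp (2.84 ± 0.44, adjusted p = 6.11e-04). After IFN the same 3 had the largest differences of the list, with adjusted p of 8.99e-09, 0.00684 and 5.63e-04. IFN gave 0 calls of 52 in either line by limma, beside 0.986% of all genes called in CFPAC1 and 0.651% in MiaPaCa2. An unadjusted p under 0.05 was reached by 10 in CFPAC1 and 0 in MiaPaCa2, and the share of all genes at that level is not given here. FUT7, which makes sialyl Lewis x in leukocytes, had the largest fitted change, 271 and 0 bp in treated CFPAC1, against 1684 and 1035 bp in untreated CFPAC1 (-1.42 ± 0.32, adjusted p = 0.0806).

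Between the clones, 3 of the 52 were called, all higher in IRF1KO, beside 1.25% of all genes (0.709% higher and 0.541% lower). ST3GAL5, the GM3 ganglioside synthase, had 4133 and 5085 bp in IRF1KO, against 1549 and 1679 bp in WT (1.16 ± 0.21, adjusted p = 0.0355). ST6GALNAC3 had 724 and 787 bp, against 0 bp (adjusted p = 0.025), and B4GALT6, a second lactosylceramide synthase, had 502 and 519 bp, against 0 bp (adjusted p = 0.0468). In bulk untreated CFPAC1, ST3GAL5 had 3092 and 3243 bp, which lies between the clone groups, while B4GALT6 had 0 bp and ST6GALNAC3 had 484 and 250 bp.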

How the data were processed

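H3K27ac peaks were analysed in 12 libraries of 6 groups of 2, grouped by their labels. Per the submitters' processing notes, the processing used Trimmomatic 0.38, Bowtie2 2.2.6, SAMtools and MACS2 2.1.0.20150731 on GRCh38. Control libraries, filters and sequencing depth are not given in the sources used here, so no interval that needs a count was made. The authors deposited 1 peak list per library, with the fold enrichment ratio, −log10 p, −log10 q and a score of each peak; their fold was used only to rank peaks within a list, their −log10 q only to filter, and their score not at all. The smallest −log10 q deposited was 1.30186 to 1.37196.

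Peaks off chromosomes 1 to 22 and X were left out (0 to 55 a library). Covered bp, number of peaks and highest fold were taken within 5 kb of a gene end (RefSeq, GRCh38.p14). Log2 of covered bp plus 500, centred on each library's mean, was fitted with limma 3.58.1 (R 4.3.3) in 1 model of 6 groups (prior variance trended on mean, 6 residual degrees of freedom), over the 15513 genes covered in at least 2 libraries. A group of 2 against 2 cannot pass a permutation test alone. On simulated data for the MiaPaCa2 IFN comparison with 15513 genes, 92% of log2 changes of 2 and 64% of changes of 1 were recovered, with 12 false calls. Tables were made with Python 3.11.15. All members were named, as was every called member, and the 3 largest uncalled changes of each comparison. The members and lists were chosen with earlier results of these data known. RefSeq promoters matched 32 of 41 members, and for each gene the listed start with the highest mean coverage over all libraries was kept.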

Additional observations from a re-analysis of the deposited data

How the results depend on the processing

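Covered length measures extent, not height, and read depth is unknown, so weak marks cannot be told from absent ones. Each comparison was repeated under other offsets, filters, scalings, thresholds, windows and subsets of libraries. The 1 call in CFPAC1 after IFN became 0 with an offset of 100 bp, no filter, coverage in at least 6 libraries, a −log10 q of at least 5, equal peak numbers, only peaks lying mostly in the window, a 2 kb window, the RefSeq start window, only its own libraries, and without any 1 library (0 to 0). The 1 call in MiaPaCa2 became 0 with an offset of 100 bp, at least 6 libraries, peak number or only its own libraries, and ranged from 0 to 3 with 1 library left out. The 0 calls between clones became 1 at a −log10 q of at least 5 and with equal peak numbers (GFPT2 both times), 1 with a 10 kb window (GALNT5) and 2 over the whole gene, and ranged from 0 to 5. The line comparisons gave 13 calls each by peak number, and 23 to 26 untreated and 18 to 19 after IFN with 1 library left out. For the difference in response, 1 member (GALNT15) was called with an offset of 2000 bp or a prior without trend, and 0 with any 1 library left out.

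Signs turned as follows. By peak number: ST6GAL1 between clones (-0.38), FUT2 (0.32) and OGT (-0.18) between untreated lines, OGT (-0.48) and ST6GAL1 (-0.19) after IFN. With equal peak numbers: B3GNT6 in CFPAC1 (0.11) and in the difference in response (0.067). Over the whole gene: MGAT3 between clones (-0.15). Without IFN-treated CFPAC1 library 1: ST6GALNAC2 (0.085, range -1.14 to 0.085 with 1 library left out) and MGAT4A (-0.056, range -0.056 to 1.23) in CFPAC1, and ST6GALNAC2 after IFN between lines (-0.24, range -0.24 to 0.99). Without untreated MiaPaCa2 library 1: MGAT3 in MiaPaCa2 (0.059, range -0.97 to 0.059). Peak number counts separate calls where bp sums them; the cause of the other turns was not tested. Without centring, the median of all genes moved to -0.10 in CFPAC1 after IFN and 0.10 between treated lines.

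Labels number the replicates alike, but same-numbered libraries deviated together only in CFPAC1 (r across genes of 0.205, against -0.011 in MiaPaCa2 and -0.057 between clones). What the same-numbered CFPAC1 libraries share was not tested. With the replicate block, the calls were 1, 1, 0, 26 and 24 in the order CFPAC1 IFN, MiaPaCa2 IFN, clones, untreated lines and treated lines, and 0 for the difference in response.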
